A study of Mus musculus with 2 samples.

Results

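Genes whose output was led by transcripts of the class retained_intron were examined in mouse macrophages. The class is a label of the GENCODE annotation for non-coding transcripts that hold sequence read as intron in coding transcripts of the same gene. A gene was selected on these data where it had a protein_coding transcript, a level of at least 5 TPM (abundance corrected for transcript length and scaled to a fixed total per library) in both replicates, and at least 50% of its TPM on retained_intron transcripts in both replicates. This rule chose 49 genes of the 5368 that met its first 2 conditions, of 21901 annotated genes with a protein_coding transcript. Of the 5368 eligible genes, 3521 had any retained_intron transcript in the annotation. The shares that chose the genes are given as a description, without a test.

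The cells were macrophages grown from bone marrow of the strain C57BL/6J, as primary cells. Both libraries belonged to 1 group that had received 100 ng/ml lipid A for 12 h, then a washout of 12 h, then 100 ng/ml lipid A again for 75 min. Lipid A anchors bacterial lipopolysaccharide in the outer membrane and is what TLR4 recognises. Total RNA of the cytosolic fraction, 1 µg per library, was depleted of ribosomal RNA and sequenced, with 2 biological replicates that carry the same donor code. With 1 group there was no comparison between conditions, and unstimulated cells or nuclear RNA were not analysed here.

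Most introns are removed while the transcript is being made. An RNA that keeps an intron often stays in the nucleus, or meets a premature stop codon in the cytosol and is degraded by nonsense-mediated decay. In immune cells, retained introns are known as one way to hold back a message until it is needed. The annotation's class, however, is also given to partial transcripts that only begin or end in an intron.

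The depth, in estimated counts summed over annotated genes, was 64187226 in replicate 1 and 49429893 in replicate 2. Retained_intron transcripts together held 1.20% and 1.31% of these counts. The selected genes held 0.667% and 0.732%. All 12 macrophage markers reached 1 TPM or more in each library, with values from 12.2 to 3115. Of 34 markers of other lineages 8 were at 1 or more in both, with Pf4 highest at 88.3. The sum over 8 nuclear-retained RNAs, a check of the fraction, was 157 TPM in replicate 1 and 432 TPM in replicate 2, and its part in the results below was not tested.

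Across the eligible genes, protein_coding transcripts held most of the TPM in both replicates for 5091 genes (94.8%). Nonsense-mediated decay transcripts led 59 genes, retained_intron transcripts 49 and processed transcripts 47. The rule's 49 genes are thus 0.913% of the eligible genes.

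What the leading transcripts held is shown first, because it bears on the class label. The leading retained_intron transcript is the one with the highest mean share of its gene's TPM. In 10 of the 49 genes it held at least 1 whole intron of a coding transcript, against 1028 of the 3256 other eligible genes whose leading retained_intron transcript was above 0 (20.4% against 31.6%). In 9 of these 10, Cd83, Ncl, Pirb, Prelid1, Rps20, Sugt1, Tap2, Tmem132a and Tmem214, the retained sequence was an intron of the most abundant coding transcript. Those 9 genes held 10 such introns, all inside the coding sequence and all beginning with GT and ending with AG. In 9 of the 10 introns the reading frame of the upstream exons ran into a stop codon inside the intron, and in Prelid1 it did not. Neither trait set these introns apart. In the other eligible genes 1065 of 1200 such introns had an in-frame stop (88.75%, against 90% here). Of all 1601 whole introns there, 1567 began with GT and ended with AG. In the tenth gene, Mtch1, the retained introns lie inside the last exon of its leading coding transcript, and the 38 intronic bases of the retained_intron transcript are at its start.

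Of the 10 introns, 7 are printed here, since they are the sequences that set these transcripts apart from the coding ones. Each runs 5′ to 3′ on the gene's strand with 9 exon bases on each side, from the GENCODE M21 transcripts. Capitals mark the first and last 2 bases of the intron and the first in-frame stop codon.
Cd83 intron 1 (chr13:43785251-43785345, plus strand, 95 bases): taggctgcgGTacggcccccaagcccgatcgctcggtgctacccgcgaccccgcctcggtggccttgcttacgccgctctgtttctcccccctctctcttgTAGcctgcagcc
Prelid1 intron 3 (chr13:55324445-55324526, plus strand, 82 bases): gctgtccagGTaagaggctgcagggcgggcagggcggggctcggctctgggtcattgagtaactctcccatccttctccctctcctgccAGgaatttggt
Tap2 intron 6 (chr17:34212068-34212229, plus strand, 162 bases): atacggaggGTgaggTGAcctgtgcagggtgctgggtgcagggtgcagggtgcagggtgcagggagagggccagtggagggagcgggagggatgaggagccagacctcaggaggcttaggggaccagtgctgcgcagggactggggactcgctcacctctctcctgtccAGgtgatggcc
Rps20 intron 1 (chr4:3835292-3835483, minus strand, 192 bases): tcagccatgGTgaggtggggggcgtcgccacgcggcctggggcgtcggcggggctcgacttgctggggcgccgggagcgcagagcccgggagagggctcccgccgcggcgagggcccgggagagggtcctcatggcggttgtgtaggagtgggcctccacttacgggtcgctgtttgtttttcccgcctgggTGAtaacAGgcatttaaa
Sugt1 intron 1 (chr14:79587867-79587953, plus strand, 87 bases): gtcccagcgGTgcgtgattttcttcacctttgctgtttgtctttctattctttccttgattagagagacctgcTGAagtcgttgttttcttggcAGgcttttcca
Ncl intron 10 (chr1:86352320-86352509, minus strand, 190 bases): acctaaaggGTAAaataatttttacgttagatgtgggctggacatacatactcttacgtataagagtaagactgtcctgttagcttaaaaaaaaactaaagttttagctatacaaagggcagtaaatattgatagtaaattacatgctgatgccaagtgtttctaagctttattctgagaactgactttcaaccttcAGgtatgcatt
Pirb intron 6 (chr7:3716891-3717117, minus strand, 227 bases): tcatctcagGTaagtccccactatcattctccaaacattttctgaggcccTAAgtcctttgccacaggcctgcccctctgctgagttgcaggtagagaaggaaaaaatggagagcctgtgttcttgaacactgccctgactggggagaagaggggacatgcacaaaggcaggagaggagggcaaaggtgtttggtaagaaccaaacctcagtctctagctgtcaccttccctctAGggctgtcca
In Ncl the stop codon began at base 2 of the intron and in Tap2 at base 7. In Cd83 it began at base 93 of 95, so that it used the intron's last bases. The introns differed in base composition: the Rps20 intron had 71.9% G and C and the Ncl intron 32.6%. Over all 14 retained introns counted in the 10 genes the median was 57.3%, against 50.96% over 1601 in other genes. Of the 14, 3 are overlapping versions of 1 Mtch1 intron, with 57.3% to 58.3% G and C. The median of the 14 thus counts that sequence 3 times and does not set these introns apart.

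In the other 39 genes the leading transcript held no whole coding intron. Of these, 30 started inside an intron, 6 ended inside one and 3 did neither. Over all 49 genes 32 leading transcripts started inside an intron, against 1223 of the 3256 others (65.3% against 37.6%). The 6 that ended inside one stood against 1731 of the others (12.2% against 53.2%). Bases are called intronic here where they lie within the gene's coding span but outside the exons of every coding transcript. By that measure neither end lay in an intron in Aif1, Timm17a and Vps16, and no base of the leading transcript was intronic in Aif1 and Vps16. Against its most abundant coding transcript alone, Aif1-205 began inside an intron and held 54 of its 323 bases. For the 30, the first exon held a median of 9.80% of the intron it began in, and 2, Taf10 and Trappc4, held 50% or more of it. The beginnings of 3 such transcripts are printed, with the intronic bases in capitals and the first 9 bases of the following exon in lower case.
H2-K1-215 (chr17:33996646-33996674, minus strand, 20 intronic bases): TTTGTTTTGTTTTACCCTAGgctcccaga
Rps16-203 (chr7:28350924-28351000, plus strand, 68 intronic bases): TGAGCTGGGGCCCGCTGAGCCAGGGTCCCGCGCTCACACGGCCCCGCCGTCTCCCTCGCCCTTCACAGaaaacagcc
Taf10-202 (chr7:105743976-105744082, minus strand, 98 intronic bases): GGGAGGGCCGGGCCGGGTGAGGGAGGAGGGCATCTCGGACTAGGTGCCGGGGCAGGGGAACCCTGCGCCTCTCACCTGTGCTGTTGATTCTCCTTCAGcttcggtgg
Taf10-202 began 4 bases into an intron of 102 bases and so held nearly all of it. Rps16-203 began 72 bases into an intron of 140 bases. H2-K1-215 held the last 20 of 172 bases, followed by 2 spliced exons.

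The leading transcripts therefore consisted mostly of exon. Their median of intronic bases was 79, which was 8.58% of the transcript, against 359 bases and 40.8% in the other eligible genes. In 13 of the 49 genes fewer than 31 bases were intronic (26.5%, against 4.27% of the other eligible genes). In 16 at least 100 were (32.7% against 83.8%). Of 199 splice junctions in the leading transcripts, 196 were also junctions of a coding transcript of the gene (98.5%). This was near the 10028 of 10347 in the other eligible genes (96.9%). Split into words of 31 bases, a median of 9.19% of the words of a leading transcript were absent from its gene's own coding transcripts. In 3 genes, Aif1, Vps16 and Zcchc24, every word was also in a coding transcript. By the leading transcript, the class name is thus met by a whole intron of the leading coding transcript in 9 of the 49 genes. It is nearly met in Taf10 and in Trappc4, whose transcript held 128 of the 148 bases of an intron. Rps20, counted as met, lies close to these. Measured from the first base of Rps20-203, Rps20-201 begins at base 177, and the first coding exon ends at base 181. The rule sums all retained_intron transcripts of a gene, and the others were not examined for introns. The leading one held at least 90% of the retained-intron share in 30 genes. In Rbm15, Olfr56 and Gm21188 the transcript ran on into an intron, with 3080, 1906 and 1085 intronic bases. In most of the others the intronic piece was short.

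**Figure D1:**
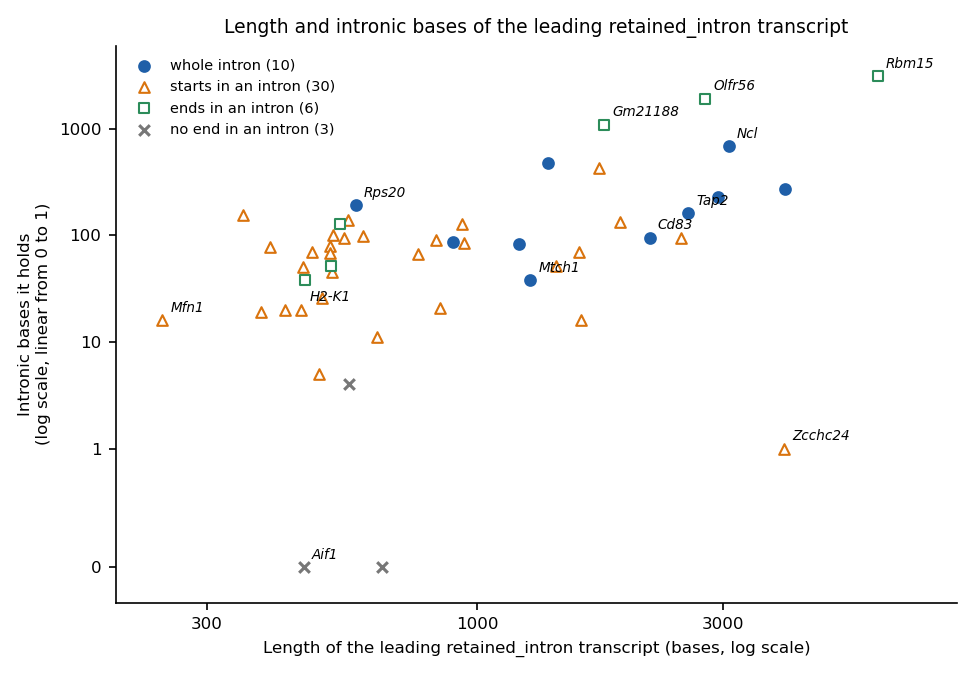
Intronic bases held by the leading retained_intron transcript (vertical axis, log scale above 1) against its length in bases (horizontal axis, log scale) for the 49 genes, 1 mark per gene. Filled circles are the 10 genes with a whole intron; most triangles, the 30 genes whose transcript starts in an intron and holds no whole one, lie below 100 intronic bases, and Aif1 is at 0.

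The leading transcripts were short. Their median length was 655 bases, from 246 in Mfn1 to 5967 in Rbm15, while the most abundant coding transcripts had a median of 2730. The median of the length ratio per gene was 0.375, and the retained_intron transcript was the longer one in 6 genes. In 29 of 49 genes it was shorter than every annotated coding transcript (59.2%, against 40.4% of other eligible genes). TPM is corrected for effective length, so a short transcript weighs more in a share of TPM than in a share of counts, and the rule used a share of TPM.

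The position within the gene was also uneven. In 31 of the 49 genes the leading retained_intron transcript ended in the last exon of the most abundant coding transcript, against 882 of the 3256 others (63.3% against 27.1%). In 13 of these 31 at least 1000 bases of that last exon lay beyond its end, and in 16 fewer than 100 did. Rps20-201, of 582 bases, stopped 3139 bases before the end of Rps20-203, the gene's 1 annotated coding transcript. Taf10-202 stopped 3503 bases before the end of Taf10-203, and Ncl-202 stopped 5776 bases before the end of Ncl-201. In 16 of the 49 genes the annotation had 1 coding transcript (32.7%, against 19.4% of other eligible genes). Among these 16, the leading retained_intron transcript stopped 459 to 3503 bases before the coding end in Mrpl57, Pirb, Rfc2, Rps16, Rps20 and Taf10. There, a spliced message with such a short last exon has no coding transcript of its own in the annotation. Outside the intronic bases its reads could not be told apart from those of the retained_intron transcript, and its part in the shares was not tested. In others the limit does not arise in this form. In Cd83 and Prelid1 the transcript ended 4 and 3 bases before the coding end, and in Rab8a and Tsn it did not end in the last exon. A like limit arises at the other end in Cd83 and Prelid1, which have 1 coding transcript each. Cd83-202 began 410 bases and Prelid1-202 1519 bases into the first coding exon. Outside the intronic bases, reads of a spliced message with such a later start could not be told apart either. The part of such messages was not tested.

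**Figure D2:**
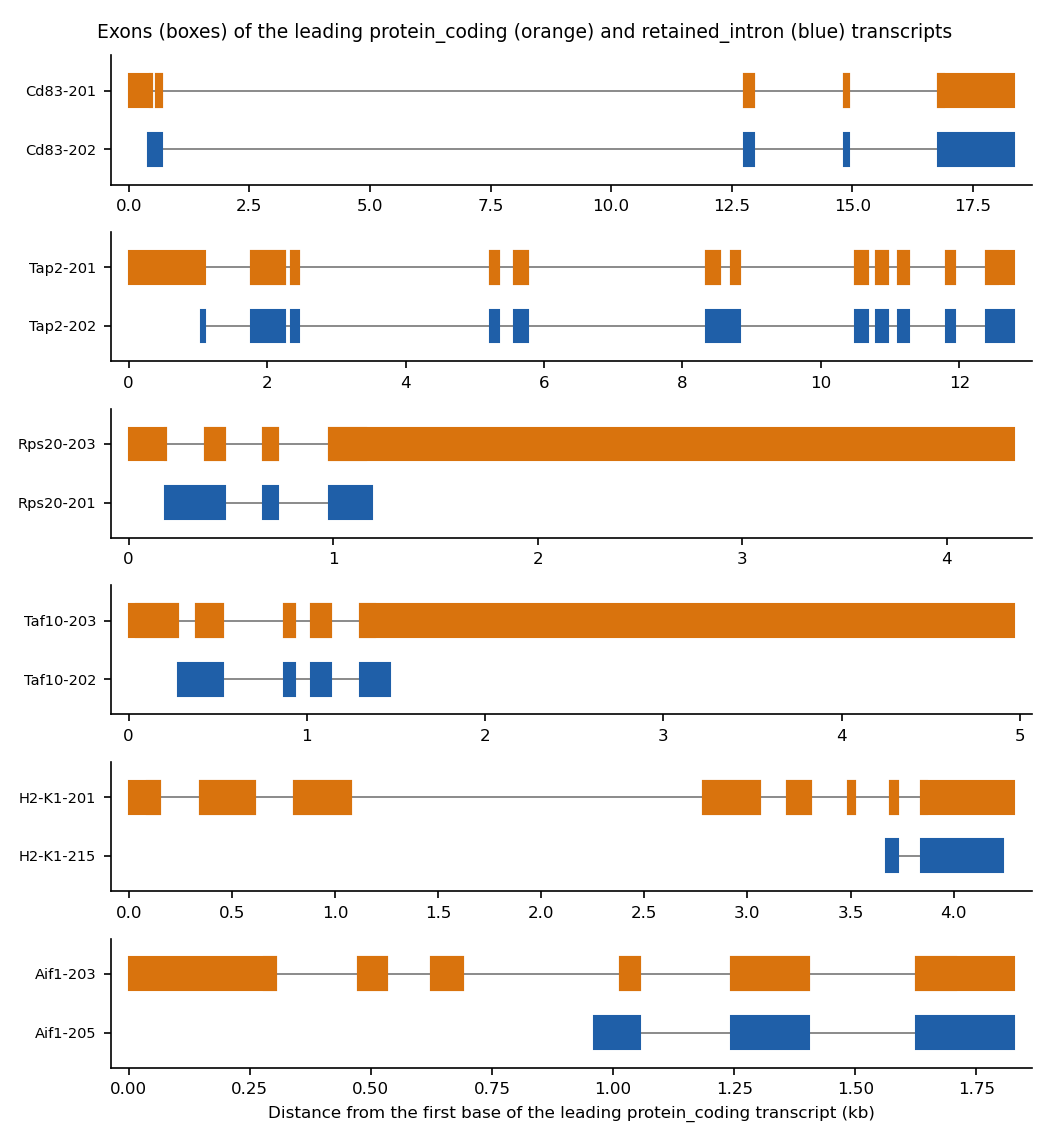
Exons (boxes) of the leading coding transcript (upper row, orange) and the leading retained_intron transcript (lower row, blue) of 6 genes, by distance in kb from the first base of the coding transcript. In Cd83, Tap2 and Rps20 a blue box spans the gap between 2 orange boxes; in Rps20 and Taf10 the blue transcript stops well before the end of the long last coding exon; in H2-K1 and Aif1 it covers the last exons.

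The shares of TPM on retained_intron transcripts ran from just over the limit to nearly all of a gene's TPM. Their median over the 49 genes was 66.2% in each replicate, against 0.13% and 0.28% over all eligible genes. The mean of the 2 replicates was at least 60% in 34 genes, at least 80% in 15 and at least 90% in 8. In 38 genes a single retained_intron transcript passed 50% in both replicates on its own. In 43 genes the deposited lower bound on the leading retained_intron transcript's TPM lay above the deposited upper bound of every coding transcript in both replicates. The level of these bounds is not given in the sources used here. The 6 exceptions were Aif1, Elp5, Vps16, Tmem214, Zcchc24 and Mfn1.

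**Figure D3:**
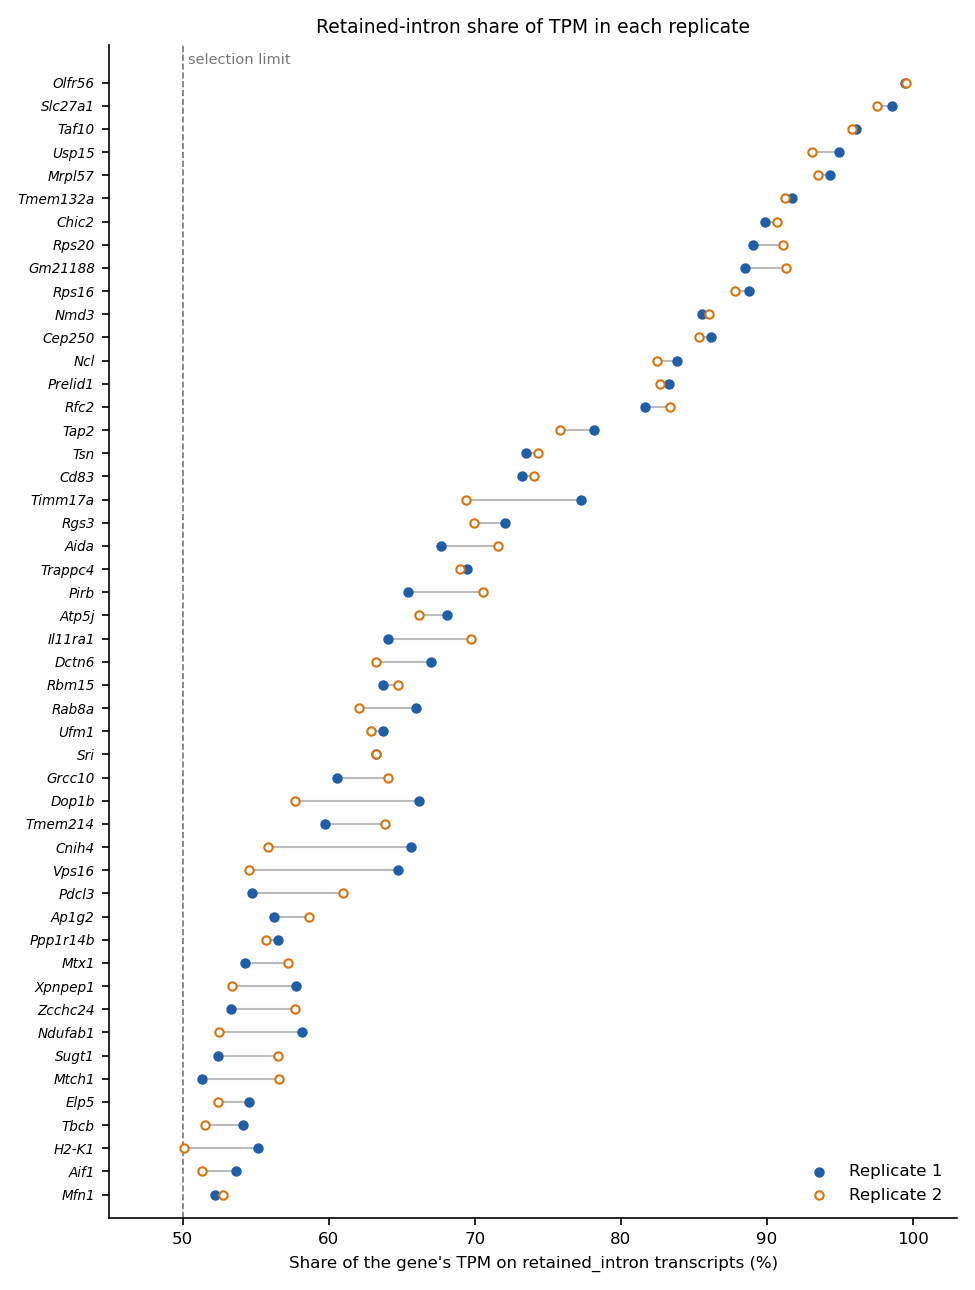
Share of each gene's TPM on retained_intron transcripts, in percent, for the 49 genes in order of their mean. Filled circles are replicate 1 and open circles replicate 2; the dashed line is the limit of 50% that chose the genes, and H2-K1 in replicate 2 lies just above it.

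Just inside the limit were H2-K1 (55.2% and 50.1% in replicates 1 and 2), Mtch1 (51.3% and 56.6%) and Aif1 (53.7% and 51.3%). Just outside it were, among others, Capns1 (47.3% and 51.4%) and Fxyd5 (48.4% and 53.3%). The rule separates these neighbours by a few points. The median absolute difference between replicates was 2.1 points among the 49 genes, and the largest was 10.2 points, in Vps16. The share was higher in replicate 1 for 27 genes and in replicate 2 for 21, and equal in Sri. A further 19 eligible genes passed 50% in 1 replicate only, among them Rpl15 with 54.6% and 40.3%.

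The same libraries were then read by 2 other measures, which share their reads with the rule and are not independent of it. By expected counts the median retained-intron share was 45.6% in replicate 1 and 48.8% in replicate 2. At least 50% of the gene's counts lay on retained_intron transcripts in both replicates in 21 of the 49 genes (42.9%), while 25 of all eligible genes (0.466%) were past that limit. In the read-based tables, a further estimate that the authors deposited, the median share of TPM was 67.6% and 64.6%. There 37 of the 49 genes (75.5%) were past 50% in both replicates, of 55 eligible genes (1.02%). By estimated counts of the same tables in place of TPM, 20 of the 49 were. The 37 genes are 67.3% of those 55, and the 21 genes are 84% of those 25. Since the same reads chose the genes, these counts lie above their backgrounds by construction and are read no further. Past 50% by all 3 measures were 21 genes, and 12 were past it by the rule's measure alone.

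The gap between the measures went with transcript length. In the 22 genes whose leading transcript was under 600 bases, the median share was 62.8% of TPM and 27.1% of counts. In the 27 others it was 69.6% of TPM and 64.8% of counts. Count shares of at least 50% in both replicates were found in 4 of the 22 and in 17 of the 27. Mfn1, a fusion protein of the outer mitochondrial membrane, had 52.2% and 52.7% of its TPM but 2.7% and 3.5% of its counts on retained_intron transcripts, about 40 counts in each library. Ufm1, a small modifier protein similar to ubiquitin, had 63.7% and 62.9% of TPM and 5.86% and 5.48% of counts. Rbm15, an RNA-binding adaptor of the m6A methyltransferase complex, went the other way, with 63.7% and 64.7% of TPM and 71.0% and 71.9% of counts. Count share exceeded TPM share in 6 genes in all.

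The 10 genes with a whole retained intron had higher median shares by each measure than the other 39. The median was 75.3% of TPM, 65.6% of counts and 76.4% of read-based TPM, against 64.2%, 36.4% and 64.8%. By counts, 7 of the 10 and 14 of the 39 were past 50% in both replicates. Their leading transcripts were also longer, with a median of 1765 against 562 bases, so the intron and the length cannot be told apart in this contrast.

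**Figure D4:**
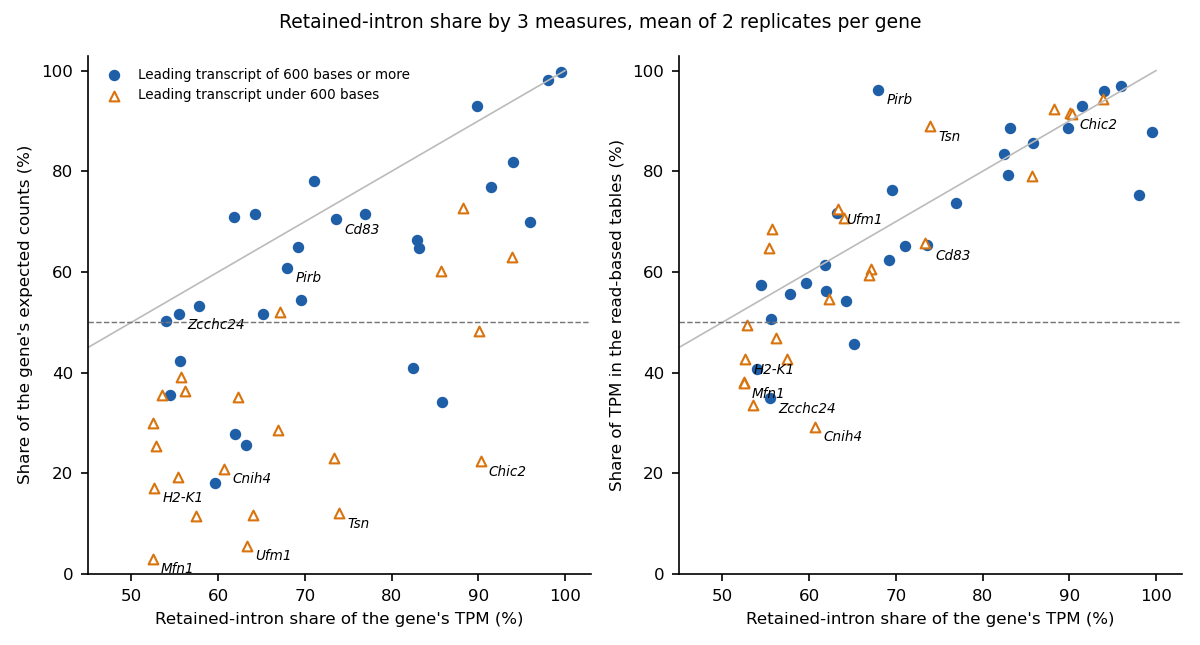
Retained-intron share of each gene by expected counts (left) and by TPM in the read-based tables (right), in percent, against the share of TPM that chose the genes, as means of 2 replicates. Open triangles, genes with a leading transcript under 600 bases, all fall below the diagonal on the left, with Mfn1 lowest, and lie on both sides of it on the right, where Cnih4 is lowest.

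In the antigen presentation list, 2 of 17 eligible genes were among the 49, beside 0.913% of all eligible genes, a count too small to set the list apart. H2-K1, a heavy chain of the class I major histocompatibility complex, was the most abundant of the 49 at 1832 TPM in replicate 1 and 2314 TPM in replicate 2. Its leading retained_intron transcript, whose start is printed above, held 20 intronic bases. Retained_intron transcripts of H2-K1 held 1010 and 1159 TPM, and coding transcripts 821 and 1155 TPM. By counts their share was 18.8% and 15.6%, and it was 48.0% and 37.4% of read-based TPM, so H2-K1 was past 50% by the rule's measure alone. Tap2, one chain of the peptide transporter that feeds class I molecules, was at 21.4 and 32.5 TPM. Its retained-intron share was 78.1% and 75.8% of TPM, 73.0% and 69.95% of counts, and 75.2% and 72.1% in the read-based tables. All 3 measures thus gave the transcript with intron 6 the larger part of Tap2, in both replicates. That transcript overlaps Gm15821 and Gm20496 on the other strand, and the strandedness of the counting is not given in the sources used here.

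Other immune surface and signalling genes among the 49 were grouped after their names were seen. Cd83, a surface protein of activated antigen-presenting cells, was at 180 TPM in replicate 1 and 108 TPM in replicate 2. The transcript with intron 1 held 132 and 79.7 TPM of this, and the coding transcript 48.3 and 28.0 TPM. The level of Cd83 was 1.67 times as high in replicate 1 as in replicate 2, while the retained-intron share was 73.2% and 74.0%. It was 70.1% and 71.0% by counts and 64.8% and 65.8% in the read-based tables, so that the 2 replicates lay within 1.0 point of each other by each measure. Pirb, an inhibitory receptor that binds class I molecules, was at 122 and 124 TPM, with 65.4% and 70.5% of TPM and 58.1% and 63.6% of counts on retained_intron transcripts. In the read-based tables the share was 96.3% and 96.1%. Of the words of its leading transcript 56.9% are also in another gene, mostly in the related Gm14548, so the value for Pirb is uncertain. Aif1, also called Iba1, a calcium-binding protein of macrophages, was at 371 and 378 TPM. Its share was 53.7% and 51.3% of TPM, 31.2% and 28.7% of counts, and 41.0% and 35.4% in the read-based tables. The leading transcript had no base outside the exons of all coding transcripts of the gene. Il11ra1, a cytokine receptor chain, was at 10.9 and 14.6 TPM, and 68.6% of the words of its leading transcript are shared with another gene, most with Gm13305.

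Genes of the ribosome and of RNA handling were grouped next. Of 45 listed cytosolic ribosomal proteins, a sample of the family, 1 was selected, Rps16 (2.22%, beside 0.913% of all eligible genes). This count is too small to set the list apart. Rps20 was a further selected gene of the family, outside that list. Rps20 was at 165 and 116 TPM, with 147 and 106 TPM on retained_intron transcripts, and Rps16 was at 157 and 93.5 TPM, with 139 and 82.1 TPM. The Rps20 share was 89.0% and 91.1% of TPM, 45.6% and 50.9% of counts, and 90.9% and 92.1% in the read-based tables. For Rps16 it was 88.7% and 87.8% of TPM, 74.1% and 71.4% of counts, and 92.3% in both replicates of the read-based tables. Both are uncertain, since 56.2% and 74.8% of the words of their leading transcripts are found in other genes, chiefly Gm4332 and Rps16-ps2. Mrpl57, a protein of the mitochondrial ribosome, had 94.3% and 93.5% of TPM and 65.1% and 60.9% of counts on its retained_intron transcript.

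Ncl encodes nucleolin, an RNA-binding protein of the nucleolus. At 37.9 and 36.9 TPM, Ncl carried 83.8% and 82.5% of its TPM on retained_intron transcripts. By counts it was 65.7% and 63.8%, or 10142 and 7954 counts, and of read-based TPM 88.9% and 88.4%. The leading transcript held introns 9 and 10, of 492 and 190 bases, and 682 intronic bases in all. Taf10, a subunit of the transcription factor complexes TFIID and SAGA, was at 46.7 and 38.0 TPM, with only 1.83 and 1.59 TPM on its coding transcript. Its retained-intron share was 96.1% and 95.8% of TPM, 70.8% and 69.2% of counts, and 97.2% and 96.7% in the read-based tables, the highest of the 49 by that measure. Its leading transcript overlaps Ilk on the other strand and shares 52.9% of its words with Gm4799, so it too is uncertain. Nmd3, an export adaptor of the large ribosomal subunit, had 85.6% and 86.1% of TPM but 33.6% and 34.9% of counts. Tsn, which encodes the nucleic acid-binding protein translin, had 73.5% and 74.3% of TPM and 11.7% and 12.5% of counts.

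In genes of mitochondria, Prelid1 and Atp5j kept the larger share by all 3 measures. Prelid1, which carries phosphatidic acid between the mitochondrial membranes, was at 62.1 and 45.7 TPM. The transcript with intron 3 held 83.3% and 82.7% of TPM, 66.9% and 65.8% of counts, and 79.5% and 78.9% in the read-based tables. It overlaps Mxd3 on the other strand, and 31.9% of its words are in another gene, most in Gm11605. Atp5j, a subunit of the ATP synthase, was at 67.7 and 54.4 TPM, with 68.1% and 66.2% of TPM and 53.3% and 50.7% of counts. Ndufab1, the mitochondrial acyl carrier protein, had 58.2% and 52.5% of TPM and 20.99% and 17.6% of counts. Timm17a, a subunit of the inner membrane import channel, had 77.3% and 69.4% of TPM and 21.95% and 24.3% of counts. Mtch1, an outer membrane protein, had 51.3% and 56.6% of TPM and 35.6% and 46.0% in the read-based tables.

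In genes of membrane traffic and of the ubiquitin system the measures lay far apart for Rab8a and Ap1g2 and close together for Usp15. Rab8a, a small GTPase of vesicle transport, was at 51.9 and 33.9 TPM, with 66.0% and 62.1% of TPM, 12.6% and 10.7% of counts, and 73.2% and 68.1% in the read-based tables. Ap1g2, a subunit of a clathrin adaptor, had 56.2% and 58.7% of TPM and 11.3% and 11.9% of counts, which were 135 and 104 counts. Cnih4, a cargo receptor of the early secretory pathway, had 65.6% and 55.8% of TPM and the lowest read-based share of the 49, 35.2% and 23.4%. Usp15, a deubiquitinase, stood apart with 94.9% and 93.1% of TPM, 83.8% and 79.98% of counts, and 96.5% and 95.4% in the read-based tables. Its leading transcript of 1587 bases held 16 intronic bases, and 51.5% and 51.7% of the gene's TPM. The intronic bases of its other retained_intron transcripts were not examined. Sugt1, a co-chaperone of HSP90, had 52.4% and 56.5% of TPM and 34.3% and 36.9% of counts on the transcript with intron 1.

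Several further genes are given for their level, their shares or, in Tmem214, a retained intron. Olfr56, named as an olfactory receptor, had the highest share, 99.5% of TPM in each replicate and 99.7% of counts in each, at 9.83 and 12.4 TPM. Its leading transcript overlaps Ifi47, an interferon-induced GTPase gene, on the same strand, and where they overlap, reads of the 2 genes cannot be told apart by position alone. Slc27a1, a fatty acid transporter, had 98.5% and 97.5% of TPM, with 0.33 and 0.41 TPM left on coding transcripts. In the read-based tables its share was lower, 76.8% and 73.6%, with 2.94 and 2.22 TPM on the leading coding transcript. Its leading retained_intron transcript held 94 intronic bases and 594 bases beyond the span of all coding transcripts. Tmem132a, which encodes a membrane protein, had 91.7% and 91.2% of TPM and 77.5% and 76.4% of counts, and its leading transcript overlaps Slc15a3 on the other strand. Tmem214 was at 8.51 and 9.13 TPM, of which its 4 retained_intron transcripts together held 59.8% and 63.9%. The one with intron 6 retained held 37.9% and 32.1% alone, below the leading coding transcript at 38.6% and 35.7%. Sri, which encodes the calcium-binding protein sorcin, had 63.2% of TPM in each replicate and 25.9% and 25.6% of counts. Elp5, an Elongator subunit, had 54.5% and 52.5% of TPM and 39.9% and 27.2% in the read-based tables. Zcchc24, which encodes a zinc finger protein, had 53.3% and 57.7% of TPM and 30.7% and 39.2% in the read-based tables, from a transcript with 1 intronic base.

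The remaining genes are given with their share of TPM and of counts, since these show the range of agreement between the measures. Chic2, a membrane protein, had 89.8% and 90.7% of TPM but 21.9% and 23.04% of counts, from a transcript of 521 bases beside a coding transcript of 9699 bases. Gm21188, a predicted gene, had 88.5% and 91.3% of TPM and 92.5% and 93.5% of counts. These 2 genes had nearly equal TPM shares and count shares far apart. Cep250, a protein of the centrosome linker, had 86.2% and 85.3% of TPM and 62.5% and 57.8% of counts. Rfc2, a subunit of the DNA clamp loader, had 81.7% and 83.4% of TPM and 39.7% and 42.3% of counts. Rgs3, a regulator of G protein signalling, had 72.1% and 69.96% of TPM and 78.7% and 77.6% of counts, and so is one of the 6 genes with the higher share by counts.

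Aida had 67.7% and 71.6% of TPM and 52.7% and 56.1% of counts, and Trappc4, a subunit of a vesicle tethering complex, had 69.5% and 69.0% of TPM and 66.4% and 63.6% of counts. Pdcl3, a chaperone of the phosducin family, had 54.7% and 61.0% of TPM and 50.2% and 56.2% of counts. All 3 were past 50% by both measures in both replicates. Dctn6, a subunit of dynactin, had 67.0% and 63.2% of TPM and 54.5% and 48.8% of counts, which put it on both sides of 50% by counts. Dop1b had 66.2% and 57.7% of TPM and 30.3% and 25.4% of counts. Vps16, a subunit of the endosomal tethering complexes, had 64.8% and 54.6% of TPM and 20.9% and 15.2% of counts. In both of these the replicates were over 8 points apart in TPM share.

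Grcc10 had 60.6% and 64.0% of TPM and 33.4% and 36.9% of counts. Xpnpep1, an aminopeptidase, had 57.8% and 53.4% of TPM and 44.9% and 39.8% of counts. Ppp1r14b, an inhibitor of protein phosphatase 1, had 56.6% and 55.7% of TPM and 36.9% and 35.9% of counts. Mtx1, a protein of mitochondrial import, had 54.3% and 57.2% of TPM and 38.2% and 40.2% of counts. Tbcb, a tubulin folding cofactor, had 54.1% and 51.6% of TPM and 26.3% and 24.6% of counts. None of these 5 was past 50% by counts in either replicate.

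Over all 49 genes, near-identical sequence and overlap with neighbours limited the assignment of reads. At least 50% of the words of the leading transcript were shared with another gene in 7 genes: Grcc10, Rps16, Il11ra1, Gm21188, Pirb, Rps20 and Taf10. In Grcc10, whose leading transcript overlaps Gm45234 on the same strand, the share of such words was 94.9%. An opposite-strand gene overlapped the leading transcript in 12 genes. No word was shared with another gene in 22.

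The coding transcripts of the 49 genes were still measured. Their median was 4.4 TPM in replicate 1 and 4.41 TPM in replicate 2, against 14.0 and 12.7 TPM over eligible genes, which the rule itself favours. Coding TPM was at least 1 in both replicates in 44 genes and at least 5 in 22. Of all 5368 eligible genes, 5347 and 5008 reached these levels, so fewer of the 49 did, which the rule also favours. By total level the 49 genes were not low: their median was 22.7 and 19.2 TPM, against 15.8 and 14.2 TPM. In mean level 7 genes lay under 10 TPM, 22 from 10 to under 30, 14 from 30 to under 100 and 6 at 100 or more.

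**Figure D5:**
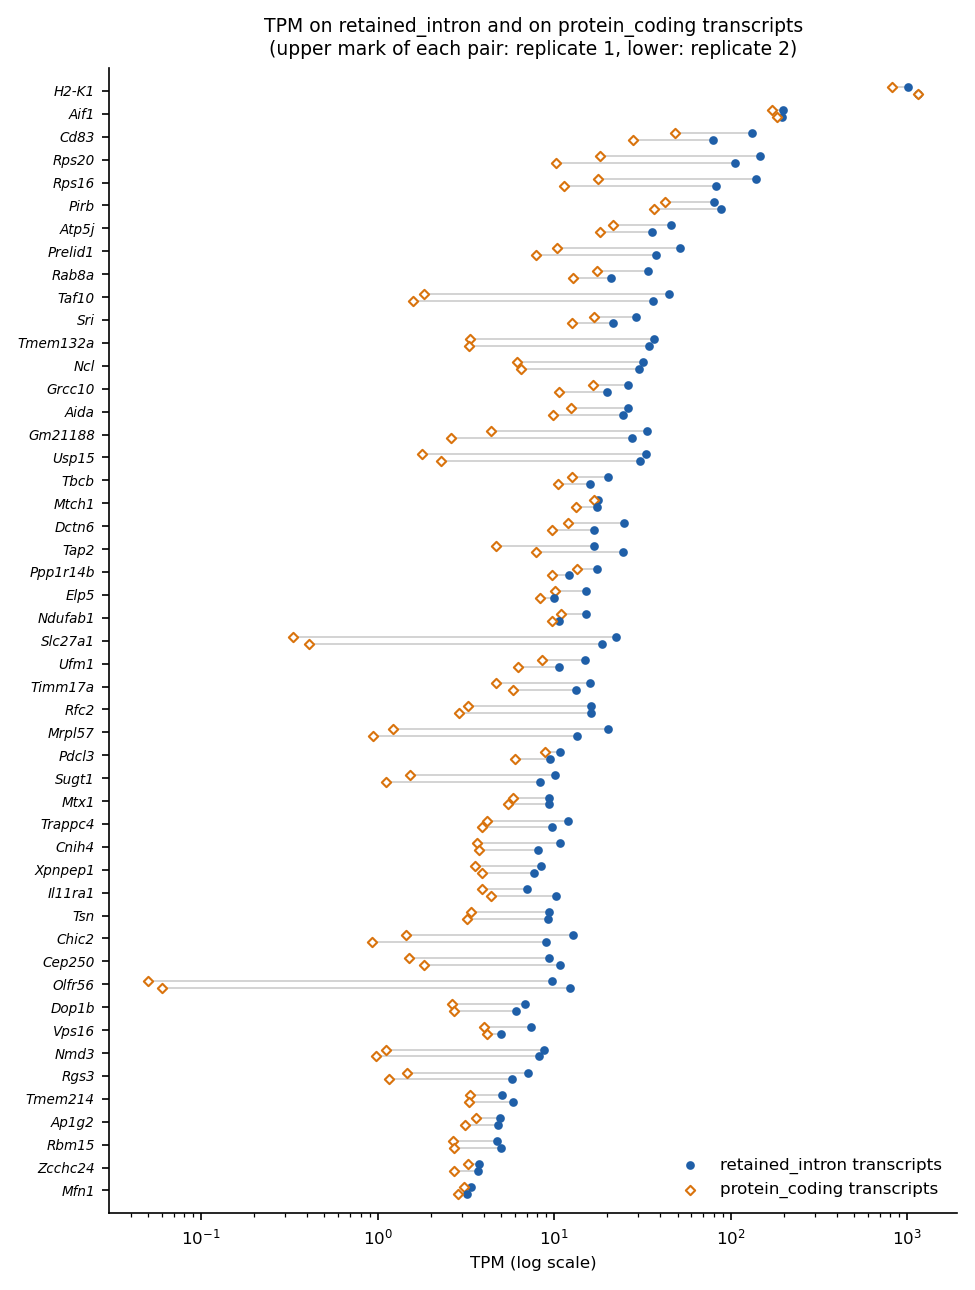
TPM on retained_intron transcripts (filled circles) and on protein_coding transcripts (open diamonds) of the 49 genes, on a log scale, with replicate 1 above replicate 2 in each pair and genes in order of total TPM. In each pair the circle lies to the right of the diamond, by little in H2-K1 and Aif1 and by most in Olfr56 and Slc27a1.

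Total levels were within 2-fold between replicates in the gene TPM that the rule used. At log2(TPM + 1), none of the 49 genes differed 2-fold between the libraries, against 48 of 5368 eligible genes (0.894%). A count of 0 among 49 is near that background. The largest difference was 0.74 on the log2 scale, in Rps16 and Cd83, followed by Rab8a at 0.60 and Tap2 at 0.58. Rps16, Cd83 and Rab8a were higher in replicate 1, and Tap2 in replicate 2. In all, 39 of the 49 were higher in replicate 1, beside 3808 of the 5368 eligible genes. Replicate 2 over replicate 1 had a median log2 ratio of -0.17, close to the -0.14 over eligible genes. In the read-based tables some genes lay further apart. There Cd83 was at 100 and 45.1 TPM, Rps16 at 73.2 and 34.2 TPM and Rab8a at 35.8 and 16.9 TPM. Each of these was over 2-fold higher in replicate 1 by that estimate.

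The splicing machinery was read from lists of factors, none of which is among the 49. Of 15 eligible SR proteins and CLK kinases, which select splice sites and phosphorylate those proteins, 0 were selected, and likewise 0 of 18 hnRNP proteins and 0 of 35 spliceosome factors. Of 10 genes each for nonsense-mediated decay and for nuclear RNA export 0 were selected. A retained_intron transcript was annotated for 13 of the 15, 12 of the 18 and 31 of the 35. For decay and export it was 6 and 8 genes, and only genes with one could be selected. Beside the 0.913% of all eligible genes, counts of 0 in lists of this size are near the background and set none of them apart. The factor nearest to the limit was Snrpa, a protein of the U1 particle, with 26.6% and 41.2% of TPM on retained_intron transcripts, followed by Clk3 with 36.2% and 17.5%. Srsf1, an SR protein, had 19.8% and 19.2%, with the replicates closer together than in Snrpa and Clk3.

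The same was seen in the lists of the lipid A response. None of 25 cytokines and chemokines, 38 interferon-stimulated genes, 22 NF-kB pathway genes and 17 immediate early genes was selected. Their median retained-intron shares of TPM were 0%, 0.235%, 0.64% and 0%. Nor was any of 32 lysosomal genes, 24 macrophage identity genes, 19 aminoacyl-tRNA synthetases and 14 glycolysis genes. A gene with no annotated retained_intron transcript could not be selected, and its share is 0 by annotation. In the order given, only 9, 22, 16 and 4 genes of the first lists had such a transcript. In the later lists 22, 6, 19 and 12 did. The absence of these genes and the low medians are thus partly fixed by the annotation. Over all lists 3 of 340 eligible genes were selected, H2-K1, Tap2 and Rps16, beside 0.913% of all eligible genes.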

How the data were processed

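The authors deposited 3 tables per replicate for 2 libraries of cytosolic total RNA, with mm10 and GENCODE M21 named in the text beside the tables. Quantifier names, versions and strandedness were not given in the sources used here. Expected counts are estimated counts that the authors deposited per gene and transcript, with no scaling, per the file headers. TPM values, corrected for effective length and scaled to a fixed sum, were deposited by the authors for both kinds of table, per the file headers. A deposited percent column holds, for every transcript, its fraction of the TPM summed over the gene, as the headers name it. The deposited bounds on TPM were used as a score of unstated level.

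Transcript classes were read from the read-based tables and joined by transcript identifier. Shares were summed per gene with Python 3.11.15, pandas 2.3.3 and numpy 2.4.6, without rounding counts. Transcript structure, positions and sequences came from the GENCODE M21 annotation and transcripts, the annotation the tables name. Words are stretches of 31 bases. Fold between replicates used a pseudocount of 1. The scripts were checked on simulated tables. With 1 group no test was run. Both replicates share a donor code and have separate biosample records, so the spread between them may be partly technical.

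The selected genes and the gene lists were chosen with earlier results of these data known. Genes were named by level, share, counts, fold between replicates, nearness to the limit and list membership. Of the genes this rule gives, 1 is not reported here. Genes named for a retained intron, a shared sequence, an overlap or a role group were chosen after their values were seen. Alternatives were other limits, other measures, each replicate left out and, added later, the content of the leading transcript.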

Additional observations from a re-analysis of the deposited data

How the results depend on the processing

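Of 41 alternatives 25 left a value the same by the rules used and 16 moved it. These rules did not look for a reversed value. They are also wide for counts of genes, where 70 beside 49 was called the same. The number of genes, 49, was 82 at a gene TPM minimum of 1, 92 at a share of at least 40%, 31 at 60%, and 25 by expected counts. Leaving out a replicate gave 56 to 70 genes. A limit set after seeing the data, a whole coding intron in the leading transcript, left 10. All 49 were among the 82 and the 92, and 21 were among the 25. At a gene TPM minimum of 10 (39 genes) the medians were 31.9 TPM for the gene against 20.9, 7.42 TPM on coding transcripts against 4.16, and 68.5% for the read-based share against 65.3%. With at least 50 counts on retained_intron transcripts (48 genes) the coding TPM was 4.72 and the length ratio 0.409 against 0.375. With 1 replicate left out, the median coding TPM ranged from 4.4 to 4.41, the read-based share from 64.6% to 67.6%, the count share from 45.6% to 48.8% against 48.3%, and the length ratio from 0.355 to 0.375. The number of genes past 50% in the read-based tables, 37, was 20 by estimated counts in place of TPM. The cause of these shifts was not tested. No paired analysis was possible because there is 1 group. Depth limits Mfn1 most, with about 40 counts on its retained_intron transcripts in each library.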
